A study of Homo sapiens with 9 samples.

Results

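LAT, ZAP70, LCK, SYK, CSK, MATK and CD247 encode the adaptor, the kinases and a receptor chain through which antigen receptors signal. They are described here together with RHOH, the gene carried by the construct, across arrays of HL-60 clone 15. This established human cell line derives from a promyelocytic leukaemia. The 8 genes were taken by name from 14778 named genes, and each of the 8 had 1 named probe set, which was used. These were 16817537 for LAT, 16883232 for ZAP70, 16662052 for LCK, 17086708 for SYK, 16803059 for CSK, 16867153 for MATK, 16695994 for CD247 and 16966214 for RHOH. The cells had been transduced with a lentiviral construct that is switched on by 4-hydroxytamoxifen (4-OHT), the active metabolite of tamoxifen. There were 3 groups of 3 arrays: RhoH cells without 4-OHT (uninduced RhoH), RhoH cells with 100 nM 4-OHT (induced RhoH) and cells with a GFP construct and 100 nM 4-OHT (GFP), where GFP is a fluorescent protein that serves as a control. No GFP cells without 4-OHT were among the arrays, so induction of the construct and exposure to 4-OHT cannot be told apart between the RhoH groups, nor the construct and other differences between the transduced populations where RhoH is set against GFP. Uninduced RhoH and GFP differ in both construct and 4-OHT. Whether the transduced cells were clones or pools is not given in the sources used here.

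RhoH is a small protein of blood cells that binds GTP without hydrolysing it. In T cells it binds the kinase ZAP70 and is needed for normal signalling by the T cell receptor. When that receptor is engaged, LCK, a Src family kinase, phosphorylates the zeta chain encoded by CD247. ZAP70 docks on the phosphorylated chain and phosphorylates LAT, a membrane adaptor on which further signalling proteins assemble. SYK, the close relative of ZAP70, serves B cells and myeloid cells, and CSK and MATK restrain Src family kinases by phosphorylating their inhibitory tyrosine. HL-60 cells are myeloid and carry no T cell receptor of their own, so these genes are measured outside the setting in which most of them are best known.

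The signal is the log2 value of a probe set after RMA, a method that corrects the background, normalizes the arrays to 1 distribution and summarises the probes. A fold change is a difference of such values, and differences between dim signals come out too small on this scale. The probe sets of different genes have different probes, so levels were not set against each other between genes. Of the deposited probe sets, 43.6% held exactly the same value on 2 or more arrays and 9.71% on 4 or more. LAT, MATK, RHOH, ZAP70, LCK and CSK had 9 distinct values, while 1 value stood on 3 arrays for CD247 and on 2 for SYK. Median log2 signal was 5.43 to 5.55 over the arrays. Correlations across probe sets within a group were lowest for induced RhoH (0.974 to 0.983) and highest for GFP (0.995 to 0.996). MPO, which encodes the promyelocyte enzyme myeloperoxidase, had a mean of 13.39 in uninduced RhoH, 13.12 in induced RhoH and 12.20 in GFP. Of 7 T cell markers measured, none was called by limma in any comparison (at an unadjusted p under 0.05, 1 was lower with induction and 1 higher in uninduced RhoH than in GFP). The mean of these 7 was 5.39 to 5.57 on every array, with CD28 and TRAT1 below the lower quartile of all genes' means (5.14). CD3D, CD3E and CD3G were not analysed here.

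LAT was the member with the widest range, and MATK moved the opposite way between the same groups. The sequences before their most upstream annotated starts are shown for this reason, in the 250 bases up to the start (RefSeq, GRCh38.p14). LAT lies at chr16:28984553-28984802 on the plus strand and MATK at chr19:3801800-3802049 on the minus strand, both read 5′ to 3′ along the gene. Capitals mark matches on either strand to any of 5 motifs: that of AP-1 (TGANTCA), of ETS factors (AGGAAG), of GATA factors (AGATAA), of RUNX factors (TGTGGT) and the palindromic oestrogen response element.
LAT: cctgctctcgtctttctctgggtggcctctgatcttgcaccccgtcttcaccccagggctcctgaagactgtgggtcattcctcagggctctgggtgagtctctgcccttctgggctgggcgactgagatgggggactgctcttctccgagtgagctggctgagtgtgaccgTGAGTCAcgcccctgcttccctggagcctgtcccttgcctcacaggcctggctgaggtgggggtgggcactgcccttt
MATK: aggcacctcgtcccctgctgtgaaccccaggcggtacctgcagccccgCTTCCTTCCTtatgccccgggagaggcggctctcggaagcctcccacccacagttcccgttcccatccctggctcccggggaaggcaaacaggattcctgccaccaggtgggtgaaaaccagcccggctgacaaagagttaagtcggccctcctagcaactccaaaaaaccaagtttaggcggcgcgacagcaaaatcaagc
The capitals in LAT are a match to the AP-1 motif that begins 78 bases before the start. Those in MATK are 2 overlapping matches to the ETS motif on the opposite strand, which begin 202 and 198 bases before the start. Of 35116 annotated windows of this length, 6.57% held the AP-1 motif, 28.7% the ETS motif, 9.17% the GATA motif, 11% the RUNX motif and 0.0399% the oestrogen response element. Over all 19 windows of the 8 genes, LAT was the gene with an AP-1 match, in 1 of its 2 windows, and none held the GATA motif or the oestrogen response element. The ETS motif was in both LCK windows, in the single CD247 window and in 1 window each of MATK, RHOH, ZAP70 and SYK, and the RUNX motif in 1 LCK window. A match describes letters only.

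RHOH, the gene of the construct, is given first as a reference and as a check of the labels. Its log2 signal was 5.23, 5.25 and 5.15 on the arrays labelled uninduced RhoH, 5.60, 5.73 and 5.45 on those labelled induced RhoH, and 5.90, 5.94 and 5.94 on those labelled GFP. The groups did not overlap, and the highest values were in the arrays labelled GFP, not in those labelled induced RhoH. It was 1.30-fold higher in induced than in uninduced RhoH, a log2 fold change of 0.38 (SE 0.09, limma adjusted p = 0.0451). Induced RhoH minus GFP gave -0.33 (SE 0.09, limma adjusted p = 0.0717). Uninduced RhoH was lower than GFP by -0.72 (SE 0.09, limma adjusted p = 0.000420). The mean of RHOH was 5.58, below the median of the tested genes on each array (6.38 to 6.48). Differences between dim signals come out too small, so these values do not bound the change in its RNA. Whether this probe set reads the transcript made from the construct is not known, as probe positions were not analysed here. Group names below are those of the labels, and each direction rests on them. The call between the RhoH groups was lost in 12 of 19 alternatives. Among these were leaving out any array but induced RhoH replicate 3 (adjusted p = 0.0781 to 0.171) and centring the arrays on their medians (0.0776). The difference from GFP passed without induced RhoH replicate 2 (-0.40, limma adjusted p = 0.0495) and after another quantile normalization (-0.37, 0.0467).

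**Figure D1:**
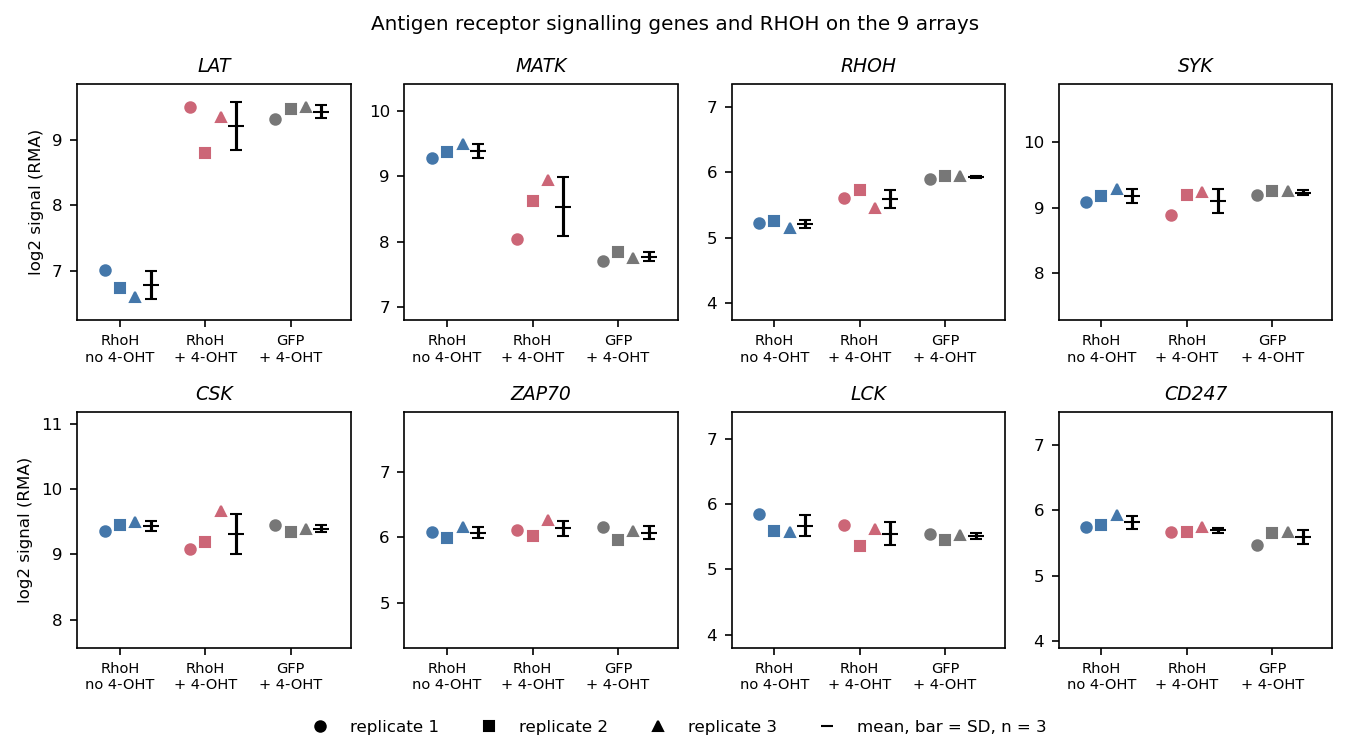
Log2 signal of LAT, MATK, RHOH, SYK, CSK, ZAP70, LCK and CD247 on each of the 9 arrays, by group, with symbols for the replicate number and bars for the mean and SD (n = 3); all panels span the same number of log2 units. LAT was low on the 3 arrays of uninduced RhoH (6.60 to 7.01) and high on the other 6 (8.79 to 9.50), while MATK was highest in uninduced RhoH (9.28 to 9.50) and lowest in GFP (7.71 to 7.85).

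LAT was 5.39-fold higher in induced than in uninduced RhoH and was not called between induced RhoH and GFP. Its log2 signal was 7.01, 6.74 and 6.60 in uninduced RhoH, 9.50, 8.79 and 9.34 in induced RhoH, and 9.32, 9.48 and 9.50 in GFP. The 3 uninduced arrays lay below all others, and the arrays of the other groups overlapped. The log2 fold change with 4-OHT was 2.43 (SE 0.18, limma adjusted p = 7.28e-05). Against GFP, uninduced RhoH was lower by -2.65 (SE 0.18, limma adjusted p = 6.65e-06). Induced RhoH against GFP gave -0.22, with a 95% interval of -0.61 to 0.17 (limma adjusted p = 0.593). The exact two-sided permutation p was 0.1 for each comparison of the uninduced arrays, the smallest that 3 against 3 allows. LAT kept both calls in each of 19 alternatives, with log2 fold changes of 2.29 to 2.64 with 4-OHT and -2.78 to -2.56 for uninduced RhoH against GFP. Induced RhoH against GFP ran from -0.46 to -0.01 and was called in none. The value of -0.46 came with array weights (limma adjusted p = 0.0838).

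MATK, a kinase of the CSK family, was highest in uninduced RhoH, intermediate in induced RhoH and lowest in GFP. Its log2 signal was 9.28, 9.38 and 9.50 in uninduced RhoH, 8.05, 8.62 and 8.94 in induced RhoH, and 7.71, 7.85 and 7.75 in GFP. No pair of groups overlapped, and the induced arrays were spread most widely (SD 0.45, against 0.11 and 0.07). It was 1.81-fold lower in induced than in uninduced RhoH, a log2 fold change of -0.85 (SE 0.19, limma adjusted p = 0.0340). Induced RhoH was above GFP by 0.77 (SE 0.19, limma adjusted p = 0.0487), and uninduced RhoH was above GFP by 1.62 (SE 0.19, limma adjusted p = 0.000248). Only the last of these kept its call in all 19 alternatives, at 1.56 to 1.69. The call between the RhoH groups was lost in 9 of 19. It was lost without any uninduced or GFP array or induced RhoH replicate 2 (adjusted p = 0.0667 to 0.132), with all probe sets tested (0.0927) and with only the 6 arrays compared (0.144). The call of induced RhoH over GFP was lost in 10 of 19. It was lost without any single array but induced RhoH replicate 1 (0.0596 to 0.171), with all probe sets tested (0.111) and with only the 6 arrays compared (0.118).

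SYK and CSK, kinases that myeloid cells use, did not pass in any comparison. SYK was 9.08, 9.18 and 9.28 in uninduced RhoH, 8.89, 9.19 and 9.23 in induced RhoH, and 9.19, 9.25 and 9.25 in GFP. The groups overlapped, and induced RhoH replicate 1 was the lowest array. The difference with 4-OHT was -0.08 with a 95% interval of -0.31 to 0.16 (limma adjusted p = 0.864). CSK, which switches off Src family kinases, was 9.35, 9.45 and 9.49 in uninduced RhoH, 9.08, 9.19 and 9.66 in induced RhoH, and 9.45, 9.34 and 9.38 in GFP. The induced arrays held both the lowest and the highest CSK value. Its difference with 4-OHT was -0.12 with a 95% interval of -0.42 to 0.19 (limma adjusted p = 0.821).

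ZAP70, LCK and CD247, the T cell receptor module, did not pass in any comparison either. ZAP70, the kinase that RhoH binds in T cells, was 6.08, 5.99 and 6.15 in uninduced RhoH, 6.12, 6.03 and 6.26 in induced RhoH, and 6.16, 5.97 and 6.10 in GFP. All its groups overlapped, and uninduced RhoH and GFP differed by -0.0011 with a 95% interval of -0.21 to 0.21 (limma adjusted p = 0.996). LCK was 5.85, 5.58 and 5.57 in uninduced RhoH, 5.68, 5.35 and 5.61 in induced RhoH, and 5.54, 5.46 and 5.52 in GFP. The uninduced arrays lay above those of GFP, by 0.16 on average (limma adjusted p = 0.406). CD247 was 5.74, 5.78 and 5.93 in uninduced RhoH, 5.67, 5.67 and 5.74 in induced RhoH, and 5.47, 5.65 and 5.67 in GFP. Here too the uninduced arrays lay above those of GFP, by 0.22 with a 95% interval of 0.02 to 0.42, which did not pass over all genes (limma adjusted p = 0.148). With array weights it passed, at 0.27 (limma adjusted p = 0.0169). For these 5 genes (SYK, CSK, ZAP70, LCK and CD247) the 15 intervals ran from -0.42 to 0.42 at their widest, each a 95% interval for a single gene. Changes in signal beyond 1.34-fold lay outside all of them. The means of ZAP70, LCK and CD247 were 6.10, 5.57 and 5.70, below the median of the tested genes on each array (6.38 to 6.48). Differences between dim signals come out too small, so the intervals of these genes do not bound the change in their RNA. All 8 members lay above the lower quartile of all genes' means, so each passed the filter on low values that was tried as an alternative.

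**Figure D2:**
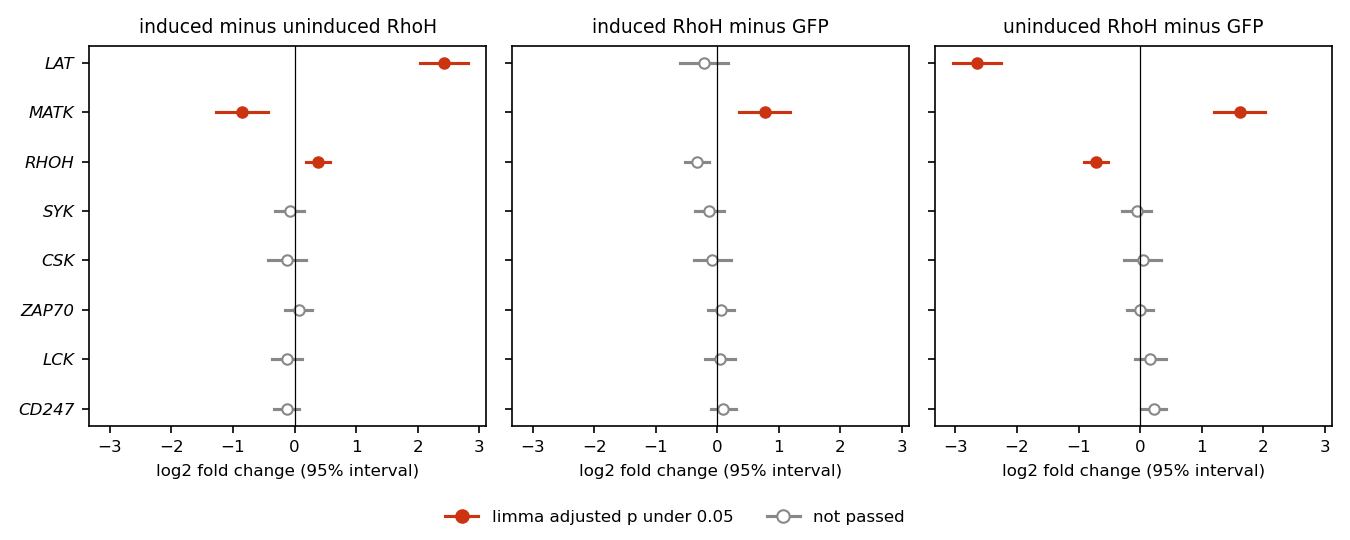
Log2 fold change of each member in the 3 comparisons (first group minus second), with the 95% interval of the limma fit; filled red points passed an adjusted p under 0.05 and open grey points did not. LAT stands at 2.43 with 4-OHT and -2.65 in uninduced RhoH against GFP, MATK at -0.85 and 1.62, and the intervals of SYK, CSK, ZAP70 and LCK cross 0 in each comparison.

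Of the 8 genes, 3 were called in induced against uninduced RhoH (37.5%), against 3.78% of all genes tested. LAT and RHOH were higher (3.02% of all genes) and MATK was lower (0.751% of all genes). RHOH, counted here among the 8, is the gene of the construct and was included as a reference. The groups did not overlap for 3 of 8 against 14.5% of all genes. After another quantile normalization the same 3 members were called, while the share of higher genes among all called genes went from 80.1% to 61.7%. Over the 19 alternatives LAT kept its call in each, while MATK lost its call in 9 and RHOH in 12. With all probe sets tested and with only the 6 arrays compared, 1 member was called. In induced RhoH against GFP, 1 of 8 was called (12.5%), against 4.49% of all genes, of which 1.74% were higher, as MATK was, and 2.75% lower. MATK and RHOH did not overlap, 2 of 8 against 22.5%. In uninduced RhoH against GFP, 3 of 8 were called against 15.3% of all genes, with LAT and RHOH lower (9.27% of all genes) and MATK higher (6.01% of all genes). LAT, MATK, RHOH, LCK and CD247 did not overlap there, 5 of 8 against 37.3%. The median log2 fold change of the 8 was -0.10, -0.02 and 0.02 in the 3 comparisons in this order, beside -0.0043, 0.03 and 0.05 over all genes. The comparisons share groups, so they are not independent of each other, and the members were chosen with earlier results of these data known.

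The genes whose profiles lay closest to those of the called members were found by the root mean square difference of mean-centred log2 values over the 9 arrays. For LAT these were CD86, a co-stimulatory ligand of antigen-presenting cells (0.23), CD48, a surface ligand of the SLAM family (0.24), and GLIPR1 (0.27), where the median over all genes was 1.24. These genes were picked for their likeness over the same arrays, so their differences between the groups follow from the choice and are given with no test. The log2 difference with 4-OHT in RhoH cells was 2.07 for CD86, 2.23 for CD48 and 2.02 for GLIPR1, and that of induced RhoH from GFP was -0.62, -0.32 and -0.64. On induced RhoH replicate 2 all of them, LAT included, had their lowest induced value. For MATK the closest were GRAMD1B (0.12), the deubiquitinase gene USP13 (0.12) and CD320, the receptor for transcobalamin (0.13), with a median over all genes of 0.69. In this order they differed by -0.78, -0.77 and -0.76 with 4-OHT in RhoH cells, by 0.74, 0.81 and 0.66 between induced RhoH and GFP, and by 1.53, 1.57 and 1.43 between uninduced RhoH and GFP. For RHOH they were the kinase genes WNK1 (0.06) and BMP2K (0.06) and the kinesin gene KIF5B (0.07), with a median over all genes of 0.36. Their differences with 4-OHT in RhoH cells were 0.47, 0.34 and 0.36, and those of induced RhoH from GFP -0.34, -0.36 and -0.43.

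**Figure D3:**
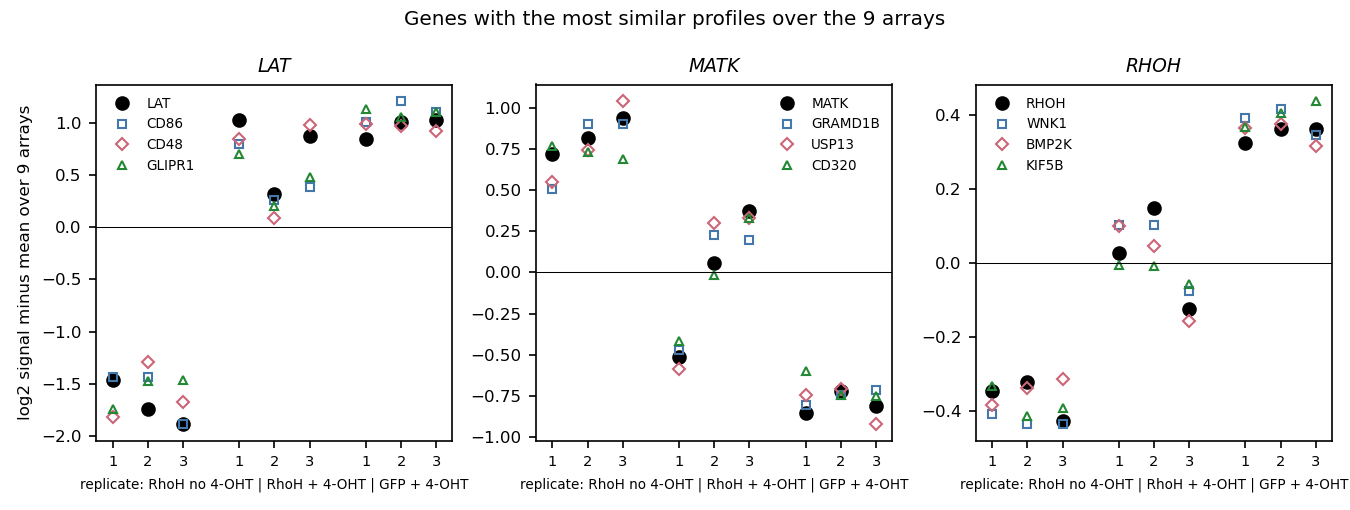
Log2 signal minus the gene's mean over the 9 arrays for LAT, MATK and RHOH (filled black) and the 3 genes closest to each (open symbols), by replicate and group. LAT lies at -1.88 to -1.47 in uninduced RhoH and at 0.32 to 1.02 in induced RhoH, with CD86, CD48 and GLIPR1 near it; vertical scales differ between panels.

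The mean of the monocyte markers was lowest in uninduced RhoH, as LAT was. Unlike LAT, it did not overlap between induced RhoH and GFP, and the single markers differed from each other. Over the 4 measured (CD14, CSF1R, CD68 and CD86) the mean log2 signal was 6.56 to 6.75 in uninduced RhoH, 7.31 to 7.74 in induced RhoH and 8.05 to 8.20 in GFP. CD68 and CD86 were called higher with 4-OHT in RhoH cells, 2 of 4 (3.02% of all genes), and CD14, CD68 and CD86 lower in uninduced RhoH than in GFP, 3 of 4 (9.27% of all genes). CD86 is also the gene picked above as closest to LAT. CD14 was also lower in induced RhoH than in GFP (-1.35, limma adjusted p = 0.00726), 1 of 4 (2.75% of all genes), where LAT was not called. With 4-OHT in RhoH cells CD14 differed by 0.12 (limma adjusted p = 0.902). CSF1R was called in no comparison, and its group means were 6.63, 6.97 and 6.95 in uninduced RhoH, induced RhoH and GFP, with 1 value on 4 of the arrays. The 6 promyelocyte markers measured had a mean of 10.74 to 10.75, 10.50 to 10.67 and 9.64 to 9.67 in the 3 groups in the same order. MPO, PRTN3, CTSG, AZU1 and MYB were called higher in both RhoH groups than in GFP, 5 of 6. Over all genes, 1.74% were called higher in induced and 6.01% in uninduced RhoH than in GFP. KIT, the receptor of stem cell factor, whose mean lay below the lower quartile, was called lower than in GFP in both (-0.53 and -1.20, limma adjusted p = 0.00817 and 1.32e-05). The shares of all genes called lower were 2.75% and 9.27%. With 4-OHT in RhoH cells KIT was called higher (0.67, limma adjusted p = 0.00290) and CTSG lower (-0.83, 0.00703), 1 of 6 each (3.02% and 0.751% of all genes). The 3 eosinophil markers measured were at 7.39 to 8.10, 7.25 to 7.78 and 6.20 to 6.27, with EPX and CLC called higher in both RhoH groups than in GFP. These were 2 of 3, beside 1.74% of all genes for induced and 6.01% for uninduced RhoH. The 3 B cell markers were at 5.24 to 5.62 over all arrays and the 4 NK cell markers at 5.94 to 6.46, with none called by limma (at an unadjusted p under 0.05, 1 B cell and 1 NK cell marker were higher in uninduced RhoH than in GFP and 1 NK cell marker higher in induced RhoH than in GFP). The part of these markers in the LAT and MATK results was not tested. In bulk RNA, fewer cells of a type and less RNA per cell cannot be told apart.

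Of 124 listed pathway genes beside the 8, 65 were measured. In induced against uninduced RhoH 11 of 65 were higher and 0 lower (16.9%, against 3.78% of all genes). Among all genes called in this comparison 80.1% were higher too. The 65 genes had a median of 0.14 beside -0.0043 over all genes. In induced RhoH against GFP 1 was higher and 4 lower (7.69%, against 4.49%). In uninduced RhoH against GFP 2 were higher and 20 lower (33.8%, against 15.3%). Beside each list below stands the share of all genes called in the same direction. The lists were written with the earlier results of these data known, and no test of a list was made.

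Src family kinases phosphorylate receptor chains and are held in check by CSK and MATK. Of 9 Src and Tec family kinases measured, LYN, YES1 and FGR rose with 4-OHT in RhoH cells, 3 of 9 (3.02% of all genes). LYN, the main Src family kinase of many myeloid cells, was 8.62, 8.76 and 8.59 in uninduced RhoH, 9.67, 9.58 and 9.80 in induced RhoH, and 9.97, 9.98 and 9.95 in GFP. Its groups did not overlap, and its log2 fold change with 4-OHT was 1.03 (SE 0.09, limma adjusted p = 0.000186). YES1 rose by 0.80 (limma adjusted p = 0.00116) and FGR by 0.55 (0.0280). All 3 and TEC were lower in uninduced RhoH than in GFP, by -1.31 for LYN, -1.12 for FGR, -1.03 for YES1 and -0.67 for TEC, 4 of 9 (9.27% of all genes). FGR was also lower in induced RhoH than in GFP (-0.56, limma adjusted p = 0.0236), 1 of 9 (2.75% of all genes).

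Receptor chains, most of which signal through SYK-type kinases, were represented by 4 of 21 listed. Of these 4, HCST does not itself signal through such a kinase. TREM1, an activating receptor of myeloid cells, rose with 4-OHT in RhoH cells by 0.80 (limma adjusted p = 0.00831), the 1 of 4 called (3.02% of all genes). At an unadjusted p under 0.05, for which no share over all genes was taken, all 4 were higher with 4-OHT in RhoH cells. Beside TREM1 these were TREM2 (0.61), TYROBP (0.58) and HCST (0.49), with limma adjusted p = 0.227, 0.0503 and 0.0600. TREM1 was lower in induced RhoH than in GFP by -0.64 (limma adjusted p = 0.0223), 1 of 4 (2.75% of all genes). All 4 were lower in uninduced RhoH than in GFP, TREM1 by -1.44, TREM2 by -0.998, and the signalling chains TYROBP (DAP12) and HCST (DAP10) by -0.73 each (9.27% of all genes). Of 10 T cell co-receptors measured, CD4, which monocytes also carry, was lower in uninduced RhoH than in GFP (-0.61, limma adjusted p = 0.00571). This 1 of 10 was near the share over all genes, 9.27%. None was called by limma in the other comparisons (unadjusted p under 0.05 for 2 genes, in opposite directions, with 4-OHT in RhoH cells and for 1, lower, in induced RhoH against GFP).

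Adaptors link the kinases to their effectors. Of 20 measured beside LAT, FYB1 (ADAP) rose with 4-OHT in RhoH cells by 0.76 and GAB2 by 0.66 (limma adjusted p = 0.00617 and 0.00819), 2 of 20 (3.02% of all genes). FYB1, GAB2 and SKAP2 were lower in uninduced RhoH than in GFP, by -1.06, -0.84 and -0.51, 3 of 20 (9.27% of all genes). None was called by limma between induced RhoH and GFP (3 lower and 0 higher had an unadjusted p under 0.05). Of 10 inhibitory proteins, 4 rose with 4-OHT in RhoH cells (3.02% of all genes). PAG1, which anchors CSK at the membrane, rose from 7.09 to 8.19 on average, by 1.11 (SE 0.12, limma adjusted p = 0.000729). The adaptors SLA, SLA2 and LAX1, which dampen antigen receptor signalling, rose by 0.95, 0.77 and 0.71 (0.000722, 0.0199 and 0.0202). PAG1 (-1.73), SLA (-1.02) and LAX1 (-0.64) were lower in uninduced RhoH than in GFP, and LAIR1, an inhibitory collagen receptor, was higher (0.45), 3 lower and 1 higher of 10 (9.27% and 6.01% of all genes). PAG1 was lower in induced RhoH than in GFP (-0.63, limma adjusted p = 0.0164), 1 of 10 (2.75% of all genes).

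Among 12 downstream effectors measured, RASGRP3, which loads Ras proteins with GTP, had the largest difference in both comparisons with uninduced RhoH. Its log2 signal was 5.32, 5.21 and 5.90 in uninduced RhoH, 7.09, 7.50 and 7.67 in induced RhoH, and 7.72, 7.67 and 7.66 in GFP. The uninduced arrays stood apart from the other 6, as for LAT. It rose with 4-OHT in RhoH cells by 1.95 (SE 0.19, limma adjusted p = 0.000367) and was lower in uninduced RhoH than in GFP by -2.21 (3.60e-05). Between induced RhoH and GFP it was not called (-0.26, limma adjusted p = 0.551). With 4-OHT it was the 1 of 12 called (3.02% of all genes higher). The related gene RASGRP2 was higher than in GFP in both RhoH groups, by 0.79 in induced and 0.77 in uninduced cells (limma adjusted p = 0.0127 and 0.00448). SOS2, another activator of Ras, was lower than in GFP in both, by -0.68 and -1.12 (0.0192 and 0.000309). BCL10, STIM1 and RASGRP4 were lower in uninduced RhoH than in GFP as well, for 5 lower and 1 higher of the 12 (9.27% and 6.01% of all genes). In induced RhoH against GFP, 1 was lower and 1 higher of the 12 (2.75% and 1.74% of all genes).

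**Figure D4:**
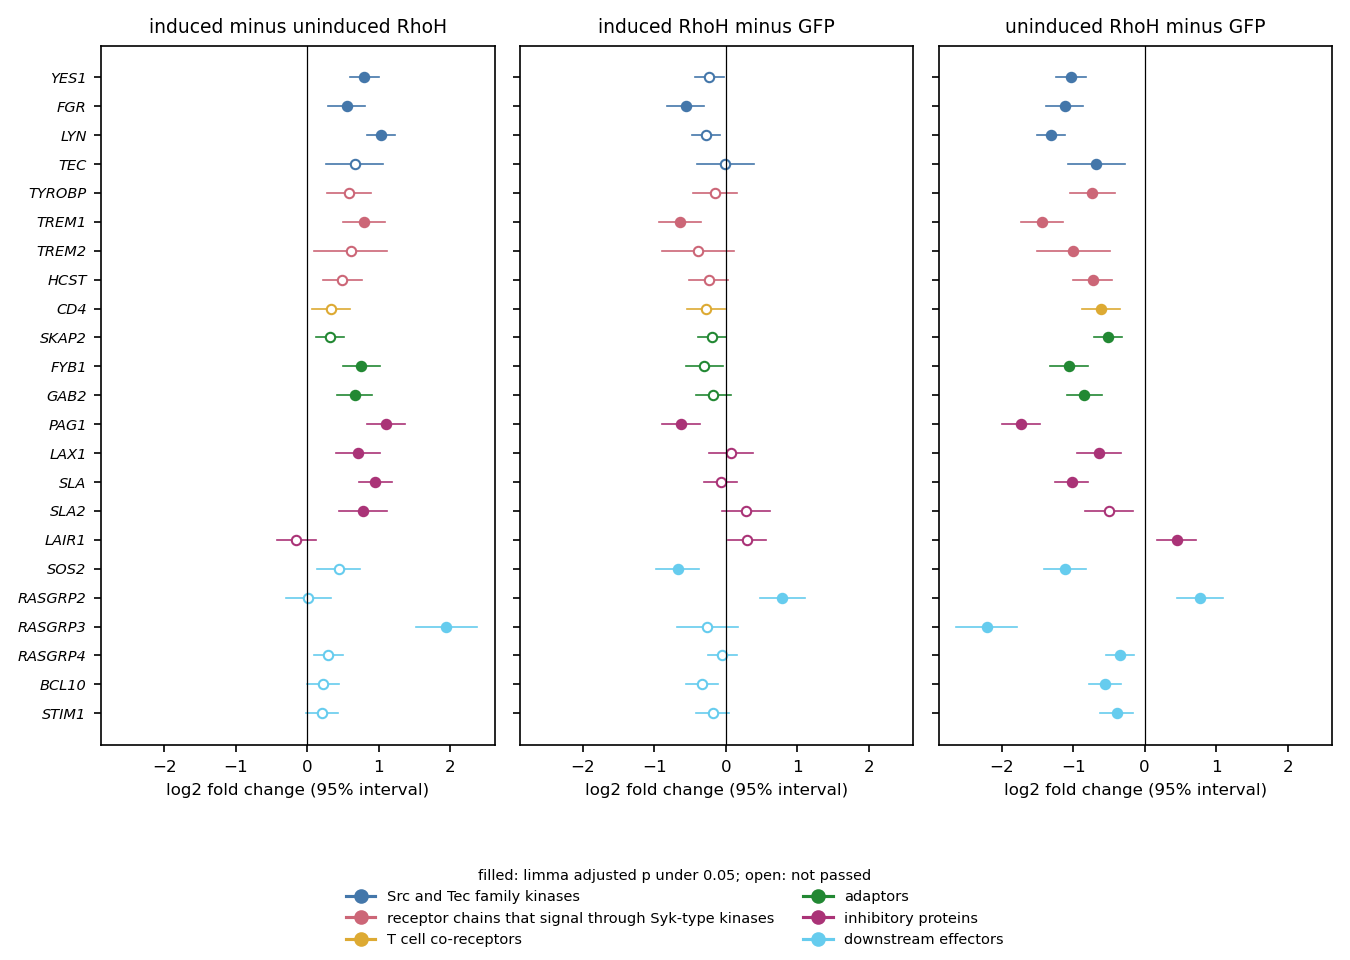
Log2 fold change and 95% interval of the 23 pathway genes called in at least 1 comparison, coloured by list; filled points passed a limma adjusted p under 0.05. In induced against uninduced RhoH the 11 filled points lie to the right of 0, led by RASGRP3 at 1.95, and in uninduced RhoH against GFP 20 of 22 lie to the left.

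Of the 11 pathway genes that rose with 4-OHT in RhoH cells, LYN, YES1, PAG1, SLA and RASGRP3 kept their calls in each of 19 alternatives. TREM1, FYB1 and GAB2 lost theirs with only the 6 arrays compared (adjusted p = 0.0537, 0.0537 and 0.0623). LAX1, SLA2 and FGR lost theirs in that setting and with all probe sets tested (0.0571 to 0.131). Among single arrays, LAX1 depended on uninduced RhoH replicates 2 and 3 (0.0762 and 0.0662 without them), and calls were lost for SLA2 without any uninduced array (0.0518 to 0.0840), and for FGR without any single array but induced RhoH replicate 1 or 3 (0.0578 to 0.0891). None of the 5 calls between induced RhoH and GFP held throughout. PAG1 and SOS2 lost theirs without any GFP array (0.0604 to 0.0975), RASGRP2 without GFP replicate 2 or 3 (0.0644 and 0.0693), and FGR and TREM1 without any GFP array or induced RhoH replicate 1 or 2 (0.0514 to 0.108). FGR and TREM1 also lost theirs with all probe sets tested and with only the 6 arrays compared (0.0548 to 0.0629). In uninduced RhoH against GFP, 16 of 22 kept their calls. The other 6 were TEC, TREM2, LAX1, LAIR1, RASGRP4 and STIM1, each of which lost its call without at least 1 of the GFP arrays (0.0533 to 0.124). TREM2, LAIR1 and RASGRP4 also lost theirs without uninduced RhoH replicate 2 (0.0518, 0.112 and 0.0986), and LAIR1 and RASGRP4 without replicate 3 (0.114 and 0.0845). STIM1 lost its call without uninduced RhoH replicate 1 (0.0559), and RASGRP4 after another quantile normalization (0.191).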

How the data were processed

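Total RNA of 9 samples was measured on Affymetrix whole-transcript arrays. The authors deposited log2 values for 43550 probe sets. They come from RMA in Affymetrix Power Tools, and limma is also named, per the submitters' processing notes. Their versions are not given in the sources used here. Probe sets were named through GEO's platform annotation (1 symbol for 15659, several for 0, none for 27891), updated through RefSeq. For genes with over 1 probe set the one with the highest mean was kept, leaving 14778 genes.

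Sample titles gave the groups and replicate numbers, and no pair of arrays was identical. The design text calls the samples biological replicates. The 3 group means were fitted over all 9 arrays with limma 3.58.1 in R 4.3.3 (6 residual degrees of freedom, prior 3.86), with Benjamini-Hochberg adjustment over all genes and a threshold of 0.05. Errors are SD over 3 arrays or SE of the fit. The number of arrays limits the precision. The fit was tested on simulated data. The members, 6 pathway lists and 6 marker lists were chosen with earlier results of these data known. A further list is not reported here, and the counts over all lists leave it out. Named are all members, per pathway list and comparison the 3 largest called changes (all where 5 or fewer were called), and the 3 genes closest to each called member. BCL10, STIM1, RASGRP4 and the single markers, outside this rule, were named after their values were seen. Alternatives were another scaling, low-signal filter, probe set choice, set of arrays, weights, moderation and a replicate block. Figures were drawn with matplotlib 3.10.9 in Python 3.11.15.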

Additional observations from a re-analysis of the deposited data

How the results depend on the processing

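Of 456 member values under 19 alternatives, 406 kept direction and side of the threshold, 31 lost a call, 3 gained one and 16 changed sign. The calls lost were those of MATK and RHOH named above. The sign changes were all in members not called. ZAP70 changed sign with array weights (-0.025 with 4-OHT in RhoH cells, -0.0041 in induced and 0.021 in uninduced RhoH against GFP), and in the last comparison with arrays centred (0.00091) and without uninduced RhoH replicate 2, GFP replicate 1 or GFP replicate 3 (-0.055 to 0.041 over all arrays left out in turn). SYK did so with 4-OHT without induced RhoH replicate 1 (range over arrays left out -0.14 to 0.031) and in uninduced RhoH against GFP after another quantile normalization (0.0027) and with array weights (0.0025). In induced RhoH against GFP, LCK did so after quantile normalization (-0.0059), with array weights (-0.068), and without induced RhoH replicate 1 (range -0.023 to 0.14) or both RhoH replicate 1 arrays (-0.023), and CSK in the last 2 settings (range -0.25 to 0.036, and 0.036). Leaving out both replicate 1 arrays was chosen after seeing the data. The cause was not tested.

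Members called were 1 instead of 3 with 4-OHT in RhoH cells and 0 instead of 1 in induced RhoH against GFP, both with all probe sets tested and with only the 6 arrays compared, and 2 in the latter after quantile normalization. All genes called with 4-OHT in RhoH cells were 953 after quantile normalization, 190 with only the 6 arrays compared and 950 with array weights, instead of 558. With array weights they were 1176 instead of 664 in induced and 4326 instead of 2258 in uninduced RhoH against GFP. Leaving out each array in turn gave 304 to 666, 279 to 861 and 1450 to 2670 genes and 1 to 3, 0 to 1 and 3 to 3 members in the 3 comparisons.

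With the replicate number as a block, 684, 820 and 2558 genes were called and no member's call changed (3, 1 and 3). The numbers were not taken as pairs in the main fit because the labels do not say what they mark. Deviations of same-numbered arrays correlated at -0.03 to 0.54, over 0.1 for 6 of 9 pairs, and 5 of 9 arrays correlated best with their own number. Between the RhoH groups these correlations were 0.54, 0.37 and 0.07 for replicates 1, 2 and 3, and what the arrays share was not tested. The rescaled settings shifted the median of all genes by at most 0.02 in size.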
